A study of Mus musculus with 3 samples.

Results

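The genes described here are the mouse Wnt ligands, their receptors and co-receptors, the R-spondins and their receptors, the secreted Wnt inhibitors, and the intracellular core formed by β-catenin, the axins and the TCF/LEF factors, with *Porcn* and the *Nkd* genes. They were selected by gene symbol alone, and the selection found 57 of the 15554 rows of the expression table. The table holds RNA-seq of NIH3T3, an immortal mouse fibroblast line of embryonic origin, after GDF15 or TGF-β stimulation. Cells of all groups were kept in serum-free IMDM for 24 h before the medium was renewed. The CTRL group then received serum-free medium only, the GDF15 group received GDF15 at 100 ng/mL, and the TGF-β group received TGF-β at 4 ng/mL, each for another 24 h. RNA was pooled within a treatment and sequenced as 1 library per group, so the differences below could not be checked against replicates and carry no p-value. The values are FPKM, in which the fragments of a gene are divided by its transcript length in kilobases and by the sequenced total in units of 1e6, and being per length they allow levels of different genes to be set side by side.

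Wnt proteins are secreted, lipid-modified growth factors. They bind a Frizzled receptor together with LRP5 or LRP6, which stops the destruction complex built on axin, lets β-catenin accumulate, and lets it act with TCF/LEF factors on target genes. Other Wnt proteins, WNT5A among them, act mainly through pathways without β-catenin. R-spondins and their LGR receptors keep Frizzled on the cell surface, and the SFRP, DKK and WIF1 proteins block ligands or co-receptors outside the cell. In fibroblasts, Wnt signalling is known for its exchange with TGF-β signalling in wound repair and fibrosis.

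A change of a gene is given here as the difference of log2(FPKM + 1) between libraries, which understates the change of low genes. Genes were counted when this difference was over 2-fold (over 1 in absolute value), the criterion of the study, and also when it was over 1.5-fold (over 0.585). Both stimulated libraries were compared with the same CTRL library, so their changes share its error. The changes that the results turn on are set beside the local spread, a robust standard deviation of the change among the 501 genes of most similar level. Multiples of the local spread are always taken after subtraction of the median change of those genes, the local median. For genes expressed at a mean of 1 FPKM or more, 9226 in all, the local spread had a median of 0.21 on the log2 scale with GDF15 and 0.22 with TGF-β. Numbers of fragments per gene were estimated from the size of the lowest FPKM steps, which put the depth at 17.0, 20.3 and 16.6 (in units of 1e6 fragments) for the CTRL, GDF15 and TGF-β libraries. Ratios of FPKM carry exact binomial 95% intervals from these fragments, and these cover counting error only. They leave out variation between replicates and the error of the estimated depths and transcript lengths. They are too narrow where reads are not independent molecules. Of 7 TGF-β response genes, 4 (*Acta2*, *Ctgf*, *Skil* and *Tagln*) were over 2-fold higher with GDF15 and 5 (these and *Eln*) with TGF-β. Over all rows, 0.289% and 0.913% were over 2-fold in either direction. *Col1a1* was at 0.60 and 0.79 and *Smad7* at 0.25 and 0.58 on the log2 scale. The 7 genes were chosen with earlier results of these data known. They were higher with both stimuli, so they cannot check which stimulated library is which. *Skil*, a feedback inhibitor of SMAD signalling, stood at 2.45 FPKM in CTRL, 6.07 with GDF15 and 8.86 with TGF-β. Of 11 fibroblast markers 10 averaged 1 FPKM or more, with *Lum* near 0. They were not level. Over 1.5-fold with GDF15, *Col1a1* and *Fn1*, the latter the most abundant by its mean, were higher and *S100a4* lower (0.60, 0.64 and -0.59). Over 1.5-fold with TGF-β, *Col1a1* and *Col1a2* were higher and *Dcn* and *Pdgfra* lower (0.79, 0.66, -0.75 and -0.79). With the trend of change by transcript length removed, the GDF15 changes were 0.51, 0.47 and -0.26, under 1.5-fold. Those with TGF-β were then 0.78, 0.69, -0.62 and -0.80. Over all rows, 1.81% were over 1.5-fold by GDF15 and 3.6% by TGF-β. Of 10 epithelial markers only *Krt14* averaged 1 FPKM or more, at 24.0 in CTRL, 48.2 with GDF15 and 136 with TGF-β. The summed level of the list therefore ran from 24.8 to 136. Of the 10, 4 (*Epcam*, *Cldn3*, *Cldn4* and *Perp*) were at 0 in all 3 libraries. *Cdh1* was at 0.685, 0.555 and 0.186, in the opposite order to *Krt14*. The 7 endothelial markers, *Tek* the most abundant by its mean over the libraries, summed to between 0.401 and 0.409, and the 7 leukocyte markers, mostly *Cd68*, to between 1.37 and 1.86. The 8 adipocyte and osteoblast markers summed to between 9.40 and 13.4, led by *Runx2*, and within them *Bglap* was over 2-fold lower with both stimuli, at 6.38, 1.51 and 2.56. *Lum*, *Cdh1* and the 4 epithelial markers at 0 were chosen after their values were seen. The part of these moving markers in the results below was not tested. In bulk RNA, fewer cells expressing a gene and less RNA per cell cannot be told apart.

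Fewer of the Wnt genes than of all genes were expressed at 1 FPKM or more in NIH3T3 cells. Of the 57 members, 18 (31.6%) averaged 1 FPKM or more, against 59.3% of all rows, and 15 (26.3%) were listed at 0 in all 3 libraries, against 18.1% of all rows. Another 23 members were above 0 in at least 1 library but under 1 FPKM in all, and for 15 of the members above 0 the estimate was at most 5.5 fragments in each library. The members at 0 were the ligand genes *Wnt2*, *Wnt3a*, *Wnt4*, *Wnt6*, *Wnt7b*, *Wnt8a*, *Wnt9b* and *Wnt11*, the receptor genes *Fzd9* and *Fzd10*, *Rspo1* and *Rspo3*, the inhibitor genes *Dkk1* and *Dkk4*, and *Nkd1*. With a floor of 3 fragments, a count of 0 allows these genes an FPKM of up to 0.0328 (*Wnt9b* in GDF15) to 0.138 (*Dkk4* in TGF-β). At the other end, 9 members were at 10 FPKM or more in all 3 libraries, namely *Ctnnb1*, *Tcf7l1*, *Tcf7l2*, *Lgr4*, *Fzd1*, *Fzd2*, *Lrp5*, *Lrp6* and *Axin1*. These encode receptors, co-receptors and the intracellular core, and no ligand or secreted inhibitor was among them.

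**Figure D1:**
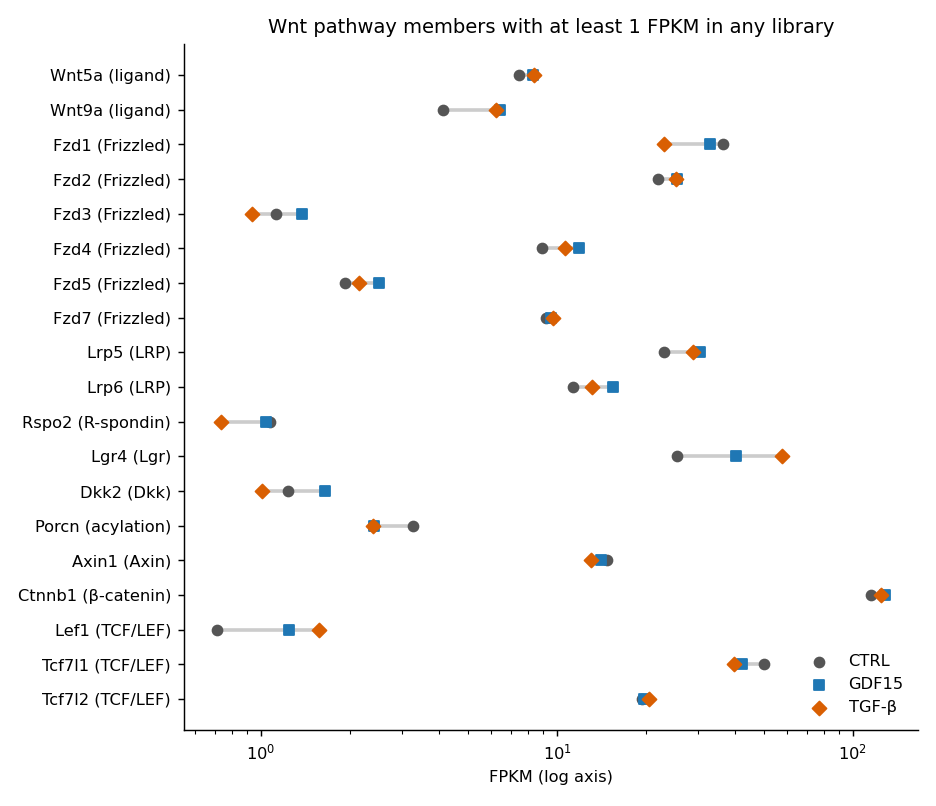
FPKM on a log axis for the 19 members that reached 1 FPKM in at least 1 library, with 1 point per library (CTRL, GDF15 and TGF-β, each 1 pooled library without an error bar). *Ctnnb1* stands highest at 115 to 128 FPKM, and *Lgr4* shows the widest gap between libraries, from 25.4 in CTRL to 57.5 in TGF-β.

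The silent members, those at 0 in all libraries, mostly had CpG-rich starts. Promoter sequences from 250 bases before to 50 after the annotated start were taken from RefSeq (GRCm38.p6), which matched 38 of the 57 members and 11481 genes of the table. CpG density was measured as the observed over expected number of CpG dinucleotides, and a ratio of at least 0.6 is the usual mark of a CpG island. Of the 11 matched members at 0 in all libraries, 9 (81.8%) reached 0.6, with a median ratio of 0.837, and the 6 matched Wnt ligands among them all did. Over the 2044 matched genes of the table at 0, the share was 25.6% and the median 0.322. Among members averaging 1 FPKM or more the share was also 81.8% (9 of 11), close to the 78.2% of all 7019 genes at that level. The share was thus alike in silent and expressed Wnt genes, whereas it differed by level over the whole table. Members of a family share descent and are not independent of each other, and the comparison is a description. The starts of 5 members are shown with each CpG in capitals, read 5′ to 3′ on the strand of the gene: *Lgr4*, *Fzd1* and *Wnt9a*, on which the results below turn, *Wnt4* as a silent ligand with a dense promoter, and *Nkd1*, which had the lowest ratio of the 38 members at the start listed first, the one used here where a gene has several.
Lgr4: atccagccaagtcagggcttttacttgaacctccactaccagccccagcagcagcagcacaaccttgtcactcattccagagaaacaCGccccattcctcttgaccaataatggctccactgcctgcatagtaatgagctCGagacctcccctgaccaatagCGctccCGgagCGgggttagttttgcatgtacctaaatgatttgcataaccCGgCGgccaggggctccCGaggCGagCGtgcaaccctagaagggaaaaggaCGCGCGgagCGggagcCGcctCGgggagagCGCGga
Fzd1: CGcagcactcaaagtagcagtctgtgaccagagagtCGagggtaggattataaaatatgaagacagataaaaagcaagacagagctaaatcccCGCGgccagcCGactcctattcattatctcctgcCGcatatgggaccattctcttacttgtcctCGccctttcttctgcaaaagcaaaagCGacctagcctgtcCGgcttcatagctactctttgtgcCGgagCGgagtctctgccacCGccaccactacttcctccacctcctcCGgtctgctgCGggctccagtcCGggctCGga
Wnt9a: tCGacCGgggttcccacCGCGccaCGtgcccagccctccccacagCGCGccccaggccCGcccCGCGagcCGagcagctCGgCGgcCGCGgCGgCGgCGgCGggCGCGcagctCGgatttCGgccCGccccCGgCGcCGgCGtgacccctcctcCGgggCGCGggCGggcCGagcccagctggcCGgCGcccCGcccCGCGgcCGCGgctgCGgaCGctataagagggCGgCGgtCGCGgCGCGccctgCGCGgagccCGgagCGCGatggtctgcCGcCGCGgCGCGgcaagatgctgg
Wnt4: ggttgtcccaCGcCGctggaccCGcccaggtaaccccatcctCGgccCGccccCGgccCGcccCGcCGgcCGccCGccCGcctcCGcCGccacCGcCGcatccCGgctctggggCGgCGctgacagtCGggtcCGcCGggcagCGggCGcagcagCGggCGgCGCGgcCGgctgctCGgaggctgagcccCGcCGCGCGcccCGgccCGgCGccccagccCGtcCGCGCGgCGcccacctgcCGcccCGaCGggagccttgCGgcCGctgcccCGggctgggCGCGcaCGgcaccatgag
Nkd1: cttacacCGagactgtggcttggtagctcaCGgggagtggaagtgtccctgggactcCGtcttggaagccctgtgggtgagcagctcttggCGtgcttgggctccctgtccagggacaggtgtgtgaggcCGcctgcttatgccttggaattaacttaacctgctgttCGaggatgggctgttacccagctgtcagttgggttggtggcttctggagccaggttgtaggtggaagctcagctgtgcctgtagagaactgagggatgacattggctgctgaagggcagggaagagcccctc
The windows are chr2:109917397-109917696 on the plus strand for *Lgr4* (18 CpG, ratio 0.711), chr5:4758167-4758466 on the minus strand for *Fzd1* (16 CpG, ratio 0.754, with a RefSeq start upstream of the GENCODE gene), and chr11:59306680-59306979 on the plus strand for *Wnt9a* (58 CpG, ratio 1.12). Those of the silent genes are chr4:137277385-137277684 on the plus strand for *Wnt4* (51 CpG, ratio 0.977) and chr8:88527383-88527682 on the plus strand for *Nkd1* (6 CpG, ratio 0.247, with a RefSeq start inside the GENCODE gene and not at its beginning). *Wnt4* at 0 therefore had almost as many CpG as *Wnt9a*, which was expressed, and *Nkd1* had the fewest.

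**Figure D2:**
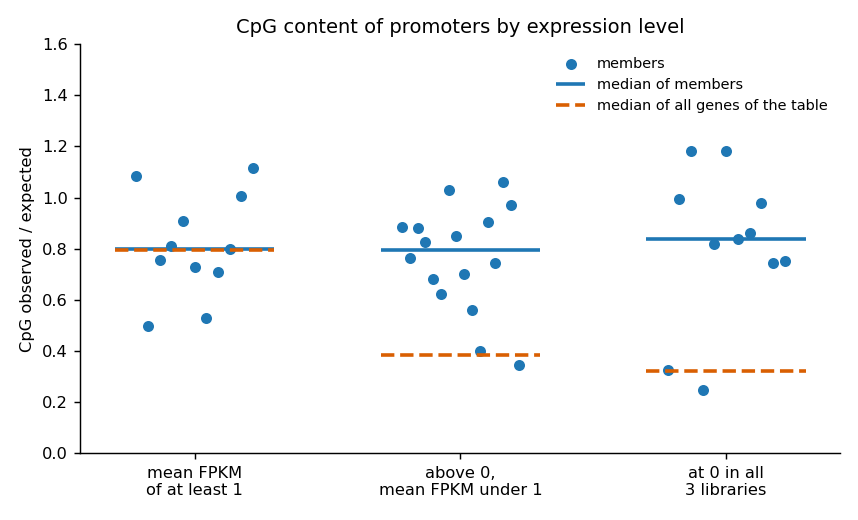
Observed over expected CpG in the 300 bases around the start (vertical axis, no unit) for the 38 members with a RefSeq promoter, grouped by level, with the median of the members beside the median of all genes of the table in that group. The medians of the members are 0.799, 0.794 and 0.837 from expressed to silent, while those of all genes are 0.794, 0.386 and 0.322.

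Few members passed either criterion of size. By GDF15, 0 of the 57 members were over 2-fold, where the share over all rows was 0.289%, and 1 member (1.75%) was over 1.5-fold, against 1.81% of all rows. By TGF-β, 1 member (1.75%) was over 2-fold, against 0.913% of all rows, and 2 members (3.51%) were over 1.5-fold, against 3.6%. In the direct comparison of TGF-β with GDF15, 0 members were over 2-fold and 0 over 1.5-fold, against 0.103% and 1.02% of all rows. Against all rows, of which a larger share was expressed, these counts were near the background, below it or of 1 member. Among the 18 members averaging 1 FPKM or more, the shares over 1.5-fold were above those of the 9226 genes at that level. They were 5.56% (1 member) against 2.82% by GDF15, and 11.1% (2 members) against 5.59% by TGF-β. Over 2-fold by GDF15 were 0 of these members, against 0.477%. Such shares rest on 1 or 2 members. The counts over all rows also depend on the pseudocount of 1. With 0.5, 5 of the 57 members (8.77%) were over 1.5-fold by TGF-β, against 4.82% of all rows. Without one, 5 and 7 of the 30 members above 0 in all libraries (16.7% and 23.3%) were over 2-fold by GDF15 and by TGF-β, against 5.32% and 7.12% of genes so filtered, and these include members of few fragments. With a pseudocount of 1 the calls fell on *Lgr4*, higher with both stimuli, and *Fzd1*, lower with TGF-β. *Lef1* did not quite pass the 1.5-fold limit by TGF-β, at 0.58 on the log2 scale.

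Below these limits, the expressed members were more often higher than lower. Over the 18 members averaging 1 FPKM or more, the median change on the log2 scale with GDF15 was 0.19, with 14 higher and 4 lower, and the middle of the members ran from 0.02 to 0.38 between the quartiles. Over the 9226 genes at that level the median was -0.03, and 44.4% were higher. By TGF-β the median of the members was 0.10, with 12 higher and 6 lower, against a median of -0.07 over all genes and 37.2% higher. Transcript length moved with these values. With GDF15 the median change over all genes was -0.19 where the longest coding transcript had at most 2000 bases and 0.14 where it had over 6000, and the members were longer than the rest, with a median of 3987 against 3138.5 bases. After removal of the length trend the medians of the members were 0.14 by GDF15 and 0.13 by TGF-β, and 13 and 12 members were higher. The medians of the members are within the local spread of single genes, which is no measure of the error of a median.

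**Figure D3:**
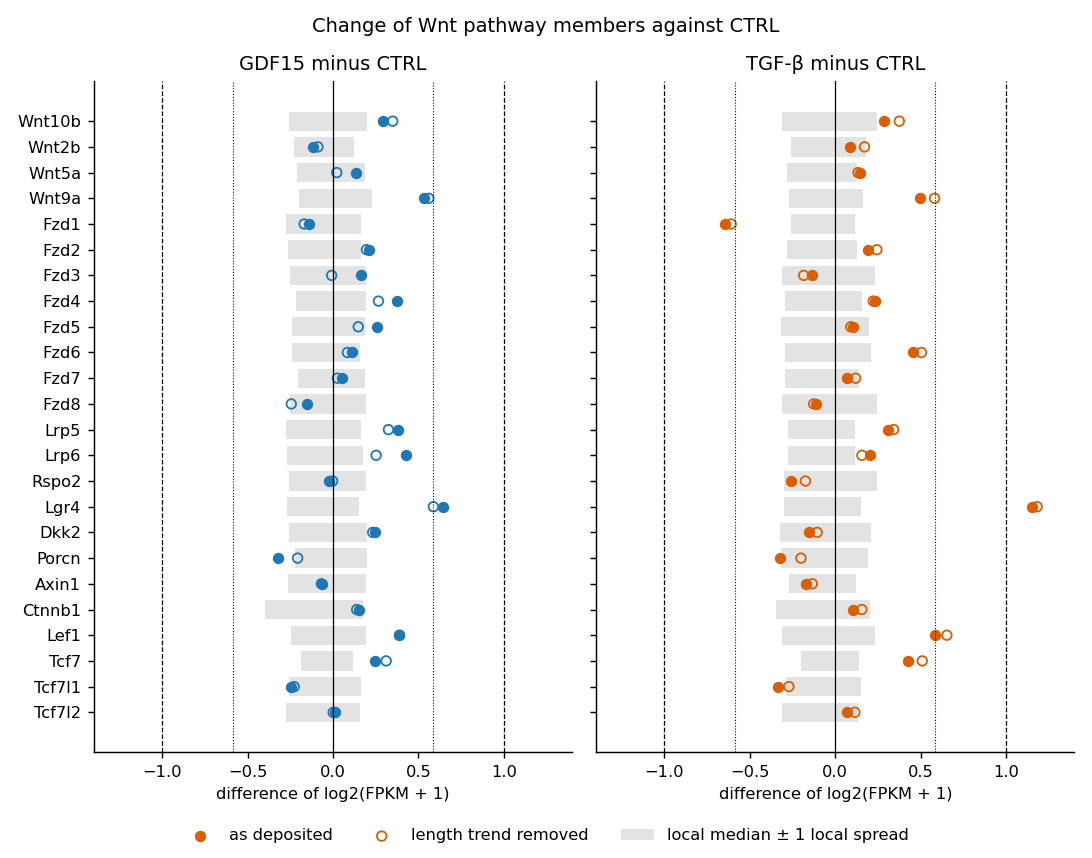
Change on the log2(FPKM + 1) scale by GDF15 and by TGF-β for the 24 members that reached 0.4 FPKM in at least 1 library, as deposited (filled points) and after removal of the length trend (open points). Grey bars span the local median plus and minus 1 local spread, dashed lines mark 2-fold and dotted lines 1.5-fold, and *Lgr4* by TGF-β is the only member beyond a dashed line, at 1.15 as deposited.

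Among the R-spondin receptors, *Lgr4* had the largest change of all members in both comparisons with CTRL on the log2(FPKM + 1) scale. This rank depends on the pseudocount. With 0.1, several members were above *Lgr4* by GDF15, where it was at 0.66, among them *Tcf7* at 1.19 and *Lef1* at 0.72, and *Tcf7* was above it by TGF-β, at 1.75 against 1.18. LGR4 binds R-spondins and protects Frizzled from removal by the ligases ZNRF3 and RNF43. It stood at 25.4 FPKM in CTRL, 40.1 with GDF15 and 57.5 with TGF-β, from an estimated 2185, 4113 and 4825 fragments. The 3 libraries were in the order CTRL, GDF15, TGF-β, and the counting intervals of all 3 ratios excluded 1. GDF15 was higher than CTRL by 0.64 on the log2 scale (FPKM ratio 1.58, 95% counting interval 1.5 to 1.67), which is 3.32 times the local spread after subtraction of the local median. TGF-β was higher than CTRL by 1.15 (ratio 2.27, 2.16 to 2.39), 5.46 times the local spread, and higher than GDF15 by 0.51 (ratio 1.43, 1.37 to 1.49), 3.77 times. With the length trend removed the changes were 0.59 and 1.18. The epithelial marker *Krt14* had the same order of libraries, and its part in this result was not tested. *Lgr4* lies on the plus strand of chromosome 2 (109917647 to 110014257 in GRCm38), and its longest coding transcript in GENCODE has 18 exons and 5060 bases. The paralogs *Lgr5* and *Lgr6*, markers of stem cells in several epithelia, were near the limit of detection. *Lgr6* had an estimated 1.77, 14.5 and 9.06 fragments in the CTRL, GDF15 and TGF-β libraries, with an FPKM ratio of GDF15 to CTRL of 6.86 and a counting interval of 1.35 to 53.4, and one of TGF-β to CTRL of 5.24 whose interval, 0.957 to 44.0, included 1. *Lgr5* had at most 4.85 fragments. Almost all RNA for R-spondin receptors was therefore that of *Lgr4*, and the summed FPKM of the 3 genes was 25.4, 40.3 and 57.6. The ligands of these receptors were scarce. *Rspo2* stood at 1.07 FPKM in CTRL, 1.04 with GDF15 and 0.732 with TGF-β, on 61.0, 70.1 and 40.5 fragments, and the counting interval of the TGF-β to CTRL ratio, 0.453 to 1.04, included 1. *Rspo4* had at most 2.03 fragments.

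The Frizzled receptors, which bind Wnt ligands directly, were led by *Fzd1* and *Fzd2*. *Fzd1* stood at 36.4 FPKM in CTRL, 32.9 with GDF15 and 23.0 with TGF-β, on 2603, 2795 and 1597 fragments. The TGF-β library was the lowest, by -0.64 against CTRL (ratio 0.630, counting interval 0.592 to 0.671) and by -0.50 against GDF15 (ratio 0.698, 0.656 to 0.743). These differences were -3.03 and -3.46 times the local spread, whereas GDF15 differed from CTRL by -0.14, which was -0.404 times. Under upper quartile scaling, and with the trend by expression removed, the change of *Fzd1* by TGF-β was -0.58 and -0.57, which did not quite pass the 1.5-fold limit. *Fzd1* is a gene of 1 exon on the minus strand of chromosome 5 (4753839 to 4758035, 4197 bases). *Fzd2* had an FPKM of 21.9, 25.5 and 25.2 in CTRL, GDF15 and TGF-β, and the order of the pair accordingly differed between libraries: *Fzd1* stood above *Fzd2* in CTRL and GDF15 and just below it in TGF-β. The share of *Fzd1* in the summed Frizzled FPKM was 45.2%, 38.8% and 31.4%, and that of *Fzd2* was 27.1%, 30.1% and 34.4%. The summed FPKM of the 10 Frizzled genes was 80.7, 84.8 and 73.1. No 50-base stretch of *Fzd1*, *Fzd2* or *Fzd7*, which are close relatives, is shared with a transcript of another coding gene, 50 bases being the read length.

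The other Frizzled genes were lower, and none was over 1.5-fold in either comparison with CTRL. *Fzd4*, a receptor also for Norrin, stood at 8.89 FPKM in CTRL, 11.8 with GDF15 and 10.6 with TGF-β, and its change by GDF15 of 0.37 was 0.27 with the length trend removed. *Fzd7* was nearly level, at 9.19, 9.57 and 9.70. *Fzd5* had 1.92, 2.50 and 2.14, *Fzd3* had 1.12, 1.38 and 0.929, and *Fzd8* had 0.951, 0.758 and 0.802. *Fzd4* stood just below *Fzd7* in CTRL and above it in both stimulated libraries. Among the low receptors, *Fzd6* had the largest ratio. It stood at 0.289 FPKM in CTRL, 0.390 with GDF15 and 0.765 with TGF-β, on 21.3, 34.1 and 54.9 fragments. The TGF-β to CTRL ratio was 2.65 with a counting interval of 1.6 to 4.68, and the TGF-β to GDF15 ratio 1.96 (1.27 to 3.13), while on the log2(FPKM + 1) scale the change by TGF-β was 0.45. FZD6 is known as a receptor of planar polarity signalling. Exons of *Fzd5* and *Fzd6* overlap noncoding genes of the opposite strand over 17.8% and 3.15% of their bases, and whether strand was used in counting is not stated.

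The co-receptor genes *Lrp5* and *Lrp6* were both higher in the stimulated libraries. *Lrp5* stood at 23.1 FPKM in CTRL, 30.4 with GDF15 and 28.8 with TGF-β, with changes of 0.38 and 0.31 on the log2 scale, and *Lrp6* had 11.3, 15.5 and 13.2, with changes of 0.43 and 0.20. Less the local median, these are 1.98 and 1.97 times the local spread for *Lrp5*, and 2.12 and 1.45 times for *Lrp6*. The counting intervals of the ratios to CTRL were all above 1, from 1.24 to 1.39 for *Lrp5* in GDF15 and from 1.3 to 1.46 for *Lrp6*. The transcript of *Lrp6* has 9368 bases, and its change by GDF15 was 0.25 with the length trend removed, while that of *Lrp5* was 0.32. Neither passed 1.5-fold.

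RNA for Wnt ligands came almost wholly from *Wnt5a* and *Wnt9a*. WNT5A is the classical ligand of β-catenin-independent signalling and acts through ROR receptors, and WNT9A takes part in joint formation. *Wnt5a* stood at 7.45 FPKM in CTRL, 8.27 with GDF15 and 8.33 with TGF-β, changes of 0.13 and 0.14, which less the local median are 0.738 and 1.09 times the local spread. *Wnt9a* had 4.13, 6.43 and 6.24, on 234, 432 and 343 fragments, and both stimulated libraries were above CTRL and near each other. Its change was 0.53 by GDF15 (ratio 1.56, counting interval 1.32 to 1.83) and 0.50 by TGF-β (1.51, 1.27 to 1.79), or 2.44 and 2.53 times the local spread, and -0.04 between the stimulated libraries. These values stayed under the 1.5-fold limit on the log2(FPKM + 1) scale. *Wnt9a* lies on chromosome 11 (59306928 to 59333552, plus strand). The summed FPKM of the 19 ligand genes was 12.5, 16.0 and 16.0, of which *Wnt5a* made up 59.6%, 51.9% and 52.1% and *Wnt9a* 33.0%, 40.3% and 39.0%. *Wnt10b*, which restrains adipocyte formation, came next. It stood at 0.501 FPKM in CTRL, 0.838 with GDF15 and 0.830 with TGF-β, on 23.1, 46.0 and 37.3 fragments, and both counting intervals of the ratio to CTRL included 1 (0.998 to 2.91 and 0.956 to 2.91). *Wnt2b* had 0.349, 0.245 and 0.432. Each of the other 7 ligand genes above 0 had at most 4.07 fragments in any library. *Wnt1* was at 0 in CTRL and had 4.07 fragments in GDF15 and 3.06 in TGF-β, too few to separate from the 3 fragments that a count of 0 allows.

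**Figure D4:**
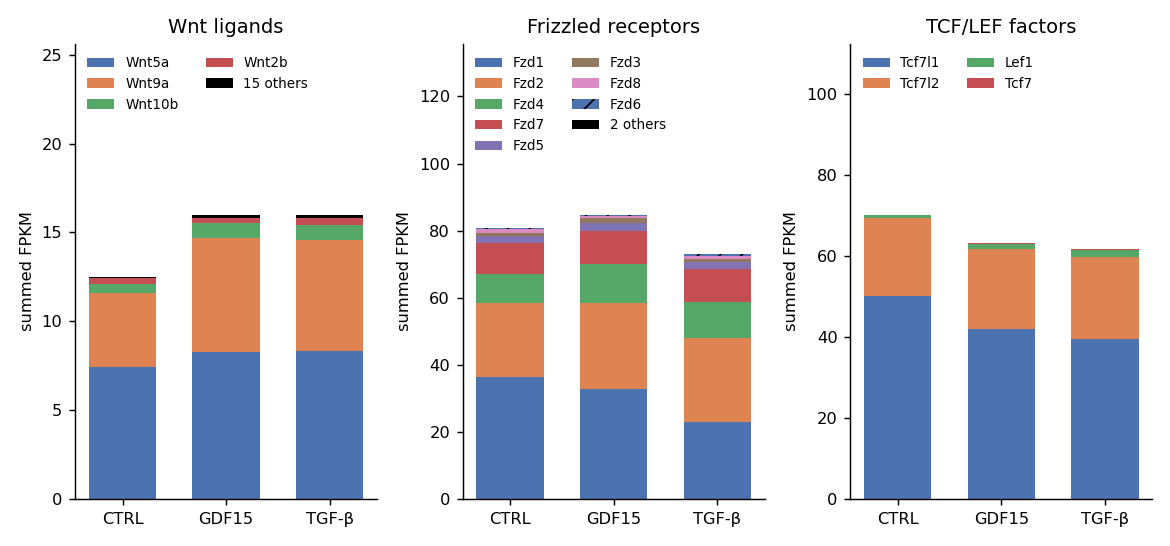
Summed FPKM per library of the Wnt ligand, Frizzled and TCF/LEF genes, stacked by gene, with the most abundant genes named. *Wnt5a* and *Wnt9a* fill nearly all of the ligand column, the *Fzd1* share shrinks from 45.2% in CTRL to 31.4% in TGF-β, and *Tcf7l1* with *Tcf7l2* fill the TCF/LEF column.

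Genes of ligand secretion were present in all libraries. *Porcn*, the acyltransferase that attaches the lipid to Wnt proteins, had an FPKM of 3.25 in CTRL and 2.40 in both stimulated libraries, a change of -0.32 by each. Its transcript of 1883 bases is short, and with the length trend removed the changes were -0.21 and -0.20. *Wls*, the carrier that takes Wnt proteins to the cell surface and is outside the selection, had an FPKM of 67.7, 77.6 and 72.2.

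Little RNA of the secreted inhibitors was found. SFRP proteins bind Wnt ligands, and the summed FPKM of *Sfrp1*, *Sfrp2*, *Sfrp4* and *Sfrp5* was 0.0938 (CTRL), 0.246 (GDF15) and 0.158 (TGF-β), with *Sfrp2* at 2.03, 7.24 and 4.14 fragments and the others at no more than 2.42. *Wif1* had 1.02 fragments in CTRL and was at 0 in the stimulated libraries. DKK proteins bind LRP5 and LRP6. *Dkk2* stood at 1.24 FPKM in CTRL, 1.65 with GDF15 and 1.01 with TGF-β, on 77.9, 124 and 61.9 fragments. Its changes against CTRL were 0.24 and -0.15, with counting intervals of the ratios that included 1 (0.999 to 1.80 and 0.575 to 1.15), and the difference between the stimulated libraries was -0.40, or -2.16 times the local spread (ratio 0.611, counting interval 0.443 to 0.835). *Dkk3*, a relative that does not block LRP, had 0.203, 0.261 and 0.178. *Dkk1*, a known β-catenin target, was at 0, where 3 fragments would give 0.0726 FPKM in CTRL, 0.0610 with GDF15 and 0.0746 with TGF-β.

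β-catenin, which links cadherins to the cytoskeleton and carries the Wnt signal to the nucleus, had the most abundant RNA of all members. *Ctnnb1* stood at 115 FPKM in CTRL, 128 with GDF15 and 124 with TGF-β, in CTRL at percentile 97.5 of all rows, and its changes of 0.15 and 0.10 were within the local spread of 0.29 and 0.28. Exons of *Ulk4* on the opposite strand cover 14.6% of its exon bases. *Axin1*, the scaffold of the destruction complex, had 14.8, 14.1 and 13.0. *Axin2* is the most widely used target gene of β-catenin. It stood at 0.0132 FPKM in CTRL, 0.0452 with GDF15 and 0.0276 with TGF-β, which correspond to 0.955, 3.90 and 1.95 fragments, at or near the floor in every library. The feedback inhibitor *Nkd1* was at 0, and *Nkd2* had 1.23 fragments in GDF15 and 0 in the other libraries.

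The TCF/LEF factors bring β-catenin to DNA or, without it, repress the same genes. *Tcf7l1*, known mainly as a repressor, led them with 50.1 FPKM in CTRL, 42.1 with GDF15 and 39.5 with TGF-β, changes of -0.25 and -0.34. *Tcf7l2* was level at 19.4, 19.6 and 20.4. The share of *Tcf7l1* in the summed FPKM of the 4 genes was 71.3%, 66.6% and 63.8%, and that of *Tcf7l2* 27.6%, 31.0% and 33.0%. The other 2 genes, *Lef1* and *Tcf7*, are known as activators with β-catenin and are themselves β-catenin targets in several tissues. They were low in CTRL and higher in both stimulated libraries. *Lef1* had an FPKM of 0.711, 1.24 and 1.57 in CTRL, GDF15 and TGF-β, on 42.1, 87.4 and 90.4 fragments. The ratio to CTRL was 1.74 for GDF15 (counting interval 1.19 to 2.58) and 2.20 for TGF-β (1.51 to 3.25), and the changes on the log2(FPKM + 1) scale were 0.39 and 0.58, or 1.90 and 2.29 times the local spread. With the length trend removed the change by TGF-β was 0.65, over the 1.5-fold limit. The difference between the stimulated libraries, a ratio of 1.26, had an interval that included 1 (0.931 to 1.72). *Lef1* lies on chromosome 3 (131110471 to 131224356), and exons of *Gm43352* on the opposite strand cover 13.7% of its exon bases. *Tcf7*, on the minus strand of chromosome 11 (52252371 to 52283014), had an FPKM of 0.0525, 0.248 and 0.413, on 2.21, 12.4 and 16.9 fragments. Its ratio to CTRL was 4.72 for GDF15 and 7.87 for TGF-β, but the few CTRL fragments left wide counting intervals of 1.12 to 46.4 and 2.07 to 77.9.

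**Figure D5:**
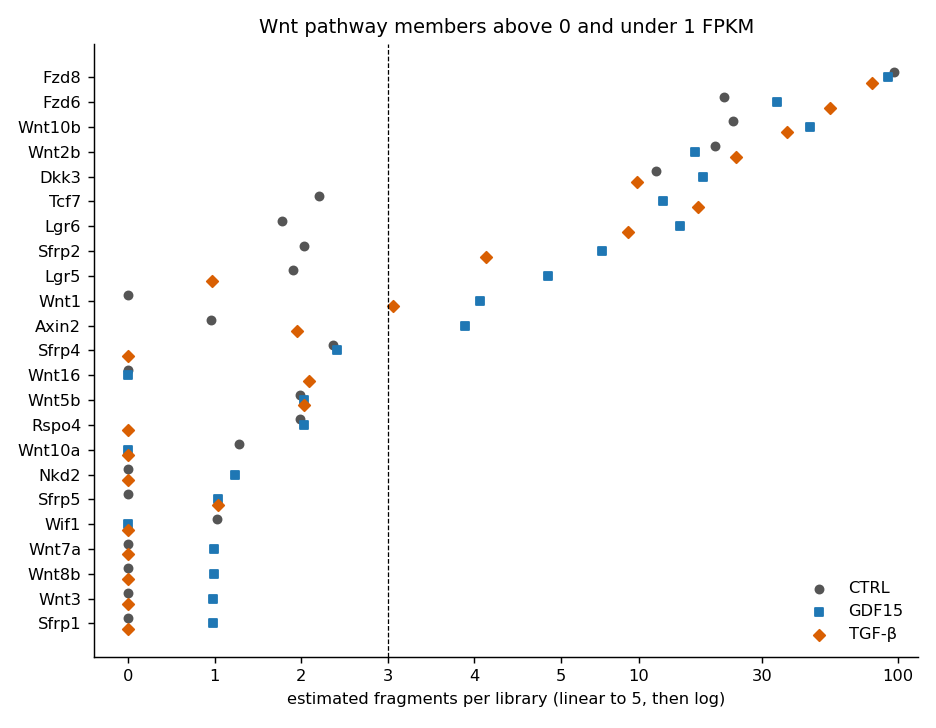
Estimated fragments per library for the 23 members that were above 0 in at least 1 library but under 1 FPKM in all 3, with a dashed line at the floor of 3 fragments. *Tcf7*, *Lgr6*, *Sfrp2* and *Wnt1* lie below the line in CTRL and above it in both stimulated libraries, *Wnt1* by the least (3.06 in TGF-β).

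Of the pathway genes outside the selection, 0 or 1 in each of the next 3 lists passed 1.5-fold by TGF-β and 0 by GDF15, where the shares over all rows were 3.6% and 1.81%. Among the 22 genes of the dishevelled proteins and the destruction complex, 0 were over 1.5-fold by either stimulus, and *Csnk1a1*, the kinase that primes β-catenin for degradation, was the most abundant at an FPKM of 70.9, 77.8 and 76.7. Among the 20 nuclear cofactors, 1 passed 1.5-fold, by TGF-β: *Tle2*, a Groucho corepressor of TCF factors, stood at 52.1 FPKM in CTRL, 35.3 with GDF15 and 28.7 with TGF-β, changes of -0.55 and -0.84. The truncated Groucho relative *Aes* was the most abundant cofactor, at 218, 183 and 166. Among the 16 other receptors, co-receptors and their regulators, 1 passed 1.5-fold: *Lrp4*, a relative of *Lrp5* and *Lrp6* that can dampen Wnt signalling, had 6.37, 5.84 and 3.79, a change of -0.62 by TGF-β. The atypical receptor *Ryk* was the most abundant of them, at 35.3, 42.1 and 38.9.

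Most known β-catenin target genes did not pass either criterion, although the share that did was above that of all rows by each stimulus. Of 30 such genes outside the selection, 15 averaged 1 FPKM or more and 9 were at 0 in all 3 libraries. Over the 15, the median change was 0.03 with GDF15 and 0.06 with TGF-β, against -0.03 and -0.07 over all genes at that level. Over 2-fold were 2 genes by each stimulus, *Wisp1* and *Wisp2*, both of the CCN family of matrix proteins, where the share over all rows was 0.289% by GDF15 and 0.913% by TGF-β. *Wisp1* stood at 1.5 FPKM in CTRL, 7.79 with GDF15 and 16.2 with TGF-β, changes of 1.82 and 2.79. *Wisp2* had 14.5, 35.5 and 80.1, changes of 1.24 and 2.39. Both are therefore among the genes that the study selected on these libraries, and are not independent evidence of the direction of the list. Over 1.5-fold were 2 of the 30 genes by GDF15, both higher, and 2 higher and 2 lower by TGF-β. The shares over all rows were 1.81% and 3.6%. Those lower by TGF-β were *Fosl1*, an AP-1 subunit, at 17.1, 11.9 and 10.2, and *Birc5*, a mitotic gene, at 37.8, 28.1 and 24.8. Their changes were -0.70 and -0.59, and -0.58 and -0.51 with the length trend removed, which did not pass the 1.5-fold limit. The most abundant of the list by its mean over the libraries, *Jun*, had 94.4, 81.4 and 71.6. Chosen after their values were seen, the feedback targets *Notum* and *Sp5* were at 0 in all libraries, *Rnf43* had an FPKM of at most 0.0558, and *Znrf3* had 1.89, 2.11 and 2.09.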

How the data were processed

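RNA-seq of 3 pooled libraries of NIH3T3 fibroblasts was used, 1 per treatment. The authors prepared stranded mRNA libraries, read them as single ends of 50 bases, and deposited FPKM calculated with Cufflinks for 15554 protein coding genes reviewed in UniProt. The submitters' processing notes name TopHat 1.3.2, Bowtie 0.12.9, Cufflinks 2.0.2 and the mouse build mm10. The gene annotation and the use of strand in counting are not given in the sources used here. FPKM were used as deposited.

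Members were matched by symbol. The members and gene lists were chosen with earlier results of these data known. Changes are differences of log2(FPKM + 1), counted over 2-fold or 1.5-fold. The local spread scales the median absolute deviation of the 501 nearest genes by 1.4826. No test between treatments is possible with 1 library each. Depth was estimated from the lowest FPKM steps of genes with a single coding transcript, times its length. Independently of length, low values gave depths relative to CTRL of 1.17 for GDF15 and 0.953 for TGF-β. FPKM summed to 331179, 306603 and 310599 in CTRL, GDF15 and TGF-β. Coordinates and lengths are from GENCODE M21 (GRCm38), which matched 14725 rows by symbol and 749 by an older symbol and left 80 unmatched. The length trend is a running median over 501 genes. Of the listed genes, *Tiki1*, *Tiki2*, *Trabd2b*, *Draxin*, *Amer1*, *Amer2* and *Pygo2* were not analysed here. Named from the lists were genes over 1.5-fold that averaged 1 FPKM or more, the most abundant gene of each list, and TGF-β response genes, and any other is said to have been chosen after its values were seen. The alternatives were pseudocounts of 0.5, 0.1 and none, a minimum mean FPKM of 1, upper quartile scaling, and removal of the trend with expression or with length. The steps were tested on simulated data. Scripts ran under Python 3.11.15 with matplotlib 3.10.9, scipy 1.17.1, pandas 2.3.3 and numpy 2.4.6.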

Additional observations from a re-analysis of the deposited data

How the results depend on the processing

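Of 49 main values recomputed under 7 alternatives, 38 stayed within 1.5 times the reported count or within the spread, and 11 moved. The pseudocount moved them most. With 0.5, 5 members were over 1.5-fold by TGF-β (*Fzd1*, *Fzd6*, *Lef1*, *Lgr4* and *Tcf7*; 8.77%), against 4.82% of all rows. With 0.1, 1 member (*Tcf7*) was over 2-fold by GDF15 and 4 (*Fzd6*, *Lef1*, *Lgr4* and *Tcf7*) by TGF-β (1.75% and 7.02%), against 2.03% and 3.14% of all rows, and 8 (14%) were over 1.5-fold by each stimulus, against 7.07% of all rows for GDF15 and 9.93% for TGF-β. Without a pseudocount, over the 30 members above 0 in all libraries, 5 were over 2-fold by GDF15, 7 by TGF-β and 1 (*Lgr5*) between the stimulated libraries (16.7%, 23.3% and 3.33%), against 5.32%, 7.12% and 4.74% of the genes so filtered, and 9 and 11 were over 1.5-fold by GDF15 and by TGF-β (30% and 36.7%), against 12% and 15.4%. These settings admit members of few fragments. With the length trend removed, 3 members (*Fzd1*, *Lef1* and *Lgr4*, 5.26%) were over 1.5-fold by TGF-β, against 3.37% of the rows with a length. Under upper quartile scaling, and with the trend by expression removed, the count stayed at 2 (3.51%, against 3.45% and 3.42% of all rows), but the members were *Lef1* and *Lgr4*, and *Fzd1* was at -0.58 and -0.57. Over all settings *Lgr4* ran from 0.59 to 0.70 by GDF15 and from 1.15 to 1.23 by TGF-β. The median change of the members ran from 0.01 to 0.26 by GDF15 and from 0 to 0.17 by TGF-β, lowest without a filter on low values. Of 819 values of 39 single genes, 59 moved and 0 reversed. A sign change was counted as reversed only where the reported change was over 1.5-fold. Smaller differences could change sign without being counted, as *Wnt9a* between the stimulated libraries, which ran from -0.04 to 0.02 over all settings. No replicate could be left out, since each group is 1 library. No paired analysis was possible because each group has 1 pooled library and no result comes from a test. Depth limits the 15 members with at most 5.5 fragments in each library.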

Other observations

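The planar polarity genes, which take part in Wnt signalling without β-catenin, included 2 that passed 1.5-fold. Of 13 such genes in the table, 8 averaged 1 FPKM or more, and their median change on the log2 scale was 0.18 with GDF15 and 0.03 with TGF-β. *Prickle2*, a core polarity protein of the cytoplasm, was higher over 1.5-fold by both stimuli, at 2.81 FPKM in CTRL, 5.01 with GDF15 and 5.37 with TGF-β and changes of 0.66 and 0.74. Over 1.5-fold were 1 of the 13 genes by GDF15 and 2 of the 13 by TGF-β, where the shares over all rows were 1.81% and 3.6%. With the length trend removed its changes were 0.52 and 0.71, so that by GDF15 it was then under 1.5-fold. *Fuz*, a polarity effector of cilium formation, was lower over 1.5-fold by TGF-β, at 7.04, 5.01 and 4.29, and with the length trend removed its change of -0.60 was -0.47. *Daam1*, a formin bound by dishevelled, was the most abundant of the list by its mean over the libraries, at 12.9, 15.7 and 14.9. The WNT5A receptors, chosen after their values were seen, were measured at moderate levels. *Ror1* had an FPKM of 4.96, 5.15 and 5.33, and *Ror2* had 6.05, 4.89 and 4.09, a change of -0.47 by TGF-β. *Ptk7*, another co-receptor of that branch, had 4.19, 3.23 and 2.60, a change of -0.53. None of these 3 passed 1.5-fold, and with 1 library per treatment their order cannot be set against a replicate error.

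Short letter patterns were searched at the starts of the members. The 47 windows belong to 38 members, some with several starts, and the shares below are a description with no test. The core TCF/LEF letters CTTTGA, searched on both strands, were found in 5 of the 47 member promoters (10.6%) and in 16.0% of 32851 promoters of the same length. The SMAD-linked letters CAGACA, likewise on both strands, were found in 10.6% and 21.0%. The letters GTCTAG were found in 4.26% and 8.37%. The *Fzd1* window holds 1 match of the TCF/LEF letters, on the strand opposite to the gene and 242 bases before the start. No match of the 3 patterns was found in the windows of *Lgr4* and *Wnt9a*. The *Lef1* window chr3:131156044-131156343, inside the GENCODE gene, holds 2 matches of the TCF/LEF letters and 2 of CAGACA. The other *Lef1* windows hold none. In the window of *Dkk1*, a silent gene, are 2 matches of the TCF/LEF letters. A match is a description of letters and says nothing of binding.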
